A study of Saccharomyces cerevisiae with 18 samples.

Results

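The large ribosomal subunit of budding yeast is built from cytosolic proteins encoded by the RPL genes, and 59 of the 6746 features in the count table are described here. They were selected by systematic name as RPL1A to RPL36A, without the genes on chromosome VIII, and no measured value entered the choice. Of the 59 genes, 48 form 24 pairs of A and B copies, and 11 have no partner among them. An intron splits the coding sequence of 40 of the genes and is absent from the other 19. They lie on 13 chromosomes, with 0 on chromosome III.

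Poly(A)-selected RNA was sequenced from 2 strains of Saccharomyces cerevisiae in 3 conditions, with 3 libraries in each of the 6 groups. The strains compare a serine-to-alanine change in histone H2A, S121A, with wild type (WT). S121A and WT were each sampled after 10 min at 39 °C, after 15 min in 0.4 M NaCl, and in log phase in rich medium at 30 °C, here called no stress. Per the labels, all 6 groups share the FY406 background and are MATa. The alleles his3delta200, leu2delta1, ura3-52, trp1delta63 and lys2-128delta are listed for both strains. LEU2 replaces the chromosomal HTA1-HTB1 genes and TRP1 replaces HTA2-HTB2, so every cell depends on HTA1-HTB1 carried by a HIS3 plasmid. That plasmid encodes S121A in the mutant and unchanged H2A in WT, and the labels of replicates 2 and 3 write its marker as HIS4 and HIS5. The labels do not say that replicates came from separate cultures, so p-values measure the spread between these libraries, which may be technical.

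Ribosomal protein genes are among the most strongly transcribed genes of growing yeast, and their messages fall when cells meet stress and growth slows. Rap1 binds most of their promoters and recruits Fhl1 with its coactivator Ifh1, while Sfp1 links the genes to nutrient and stress signals. Many of them survive as A and B copies left by an ancient duplication of the genome, and the proteins of a pair are nearly or fully identical.

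Counting reads for such pairs depends on how much of their sequence differs, and the first 120 coding bases of a diverged and of a close pair are shown to make this visible. Capitals mark bases that differ within a pair. RPL15A and RPL15B differ at 42 of 615 coding bases, 6 of them in the stretch shown. RPL1A and RPL1B differ at 4 of 654, 2 of them in the stretch. The R64 positions are chrXII:202471-202590 and chrXIII:510229-510348 (minus strand) for RPL15A and RPL15B, and chrXVI:135790-135909 and chrVII:254641-254760 (plus strand) for RPL1A and RPL1B.
RPL15A: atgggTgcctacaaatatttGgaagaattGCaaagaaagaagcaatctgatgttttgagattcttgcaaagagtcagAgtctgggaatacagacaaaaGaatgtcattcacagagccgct
RPL15B: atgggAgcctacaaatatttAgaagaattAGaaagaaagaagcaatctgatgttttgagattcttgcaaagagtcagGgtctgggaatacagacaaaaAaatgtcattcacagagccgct
RPL1A: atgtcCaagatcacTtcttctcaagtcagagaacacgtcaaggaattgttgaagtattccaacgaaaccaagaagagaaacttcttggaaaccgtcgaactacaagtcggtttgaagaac
RPL1B: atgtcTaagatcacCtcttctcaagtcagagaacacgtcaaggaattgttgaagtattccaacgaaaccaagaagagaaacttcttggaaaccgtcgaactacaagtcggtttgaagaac
Coding identity within the 24 pairs ran from 78.9% for RPL22 to 99.4% for RPL1, with a median of 93.5%. In 5 pairs, RPL1, RPL4, RPL7, RPL11 and RPL35, at least 50% of all windows of 50 bases, the labelled read length, were identical in both copies. No source used here states how reads that fit both copies were counted, so the A and B counts of these 5 pairs are uncertain.

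The promoters of a further contrast are shown because RPL15B was the only member that rose in stress and RPL22B the one that fell most, each beside its partner. The stretches are bases 250 to 101 before the start codon in R64, and capitals mark a match on either strand to a relaxed form of the Rap1 motif, 10 bases of which 7 are fixed and 3 are free. They lie at chrXII:202691-202840 (RPL15A, minus strand), chrXIII:510449-510598 (RPL15B, minus), chrXII:262944-263093 (RPL22A, plus) and chrVI:65033-65182 (RPL22B, minus).
RPL15A: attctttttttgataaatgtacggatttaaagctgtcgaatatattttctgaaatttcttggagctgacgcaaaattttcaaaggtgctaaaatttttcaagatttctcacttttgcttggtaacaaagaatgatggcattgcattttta
RPL15B: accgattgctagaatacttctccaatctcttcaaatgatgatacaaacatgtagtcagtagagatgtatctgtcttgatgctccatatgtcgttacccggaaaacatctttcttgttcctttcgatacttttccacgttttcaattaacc
RPL22A: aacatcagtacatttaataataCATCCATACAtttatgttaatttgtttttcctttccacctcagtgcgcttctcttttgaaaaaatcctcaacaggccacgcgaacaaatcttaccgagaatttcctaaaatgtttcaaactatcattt
RPL22B: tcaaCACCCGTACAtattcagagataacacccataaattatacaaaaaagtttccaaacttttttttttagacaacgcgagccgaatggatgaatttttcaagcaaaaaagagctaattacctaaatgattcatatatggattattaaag
Neither RPL15 stretch holds a match. Both RPL22 stretches hold 1, and the match in RPL22B also fits the strict form of the motif, 11 bases of which 9 are fixed and 2 are free.

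Libraries held 39.6 to 53.03 M (mega) counts, and all 59 members passed the filter on low counts, among 6395 features that did. Values are given as CPM, counts scaled by TMM in edgeR to a library total of 1 M. The a-specific genes MFA1, MFA2, STE2 and BAR1 summed to 325.9 to 2768 counts per M of the library total, and the alpha-specific genes MF(ALPHA)1, MF(ALPHA)2, STE3 and SAG1 to 36.4 to 127.6, with 0 of these genes at 0 in any group. A gene was called where the adjusted p of edgeR's quasi-likelihood test, Benjamini-Hochberg over 6395 genes, was under 0.05. A log2 fold change always has the S121A group, or the stressed group, on top.

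The 59 genes together gave 1.315%, 1.239% and 1.265% of all counts in the S121A libraries at 39 °C, and 0.9629%, 1.046% and 1.01% in the WT libraries at 39 °C. In NaCl they gave 4.224%, 4.863% and 4.772% in S121A and 4.573%, 4.316% and 4.282% in WT. Without stress they gave 8.338%, 8.331% and 8.025% in S121A and 7.717%, 7.319% and 7.721% in WT. The 3 conditions did not overlap, and within a condition the S121A libraries lay above the WT libraries at 39 °C and without stress but overlapped them in NaCl. Counts are relative, so less ribosomal protein message and more of other messages cannot be told apart by these shares. As each library pools many cells, less of it per cell and fewer cells holding it cannot be told apart either.

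**Figure D1:**
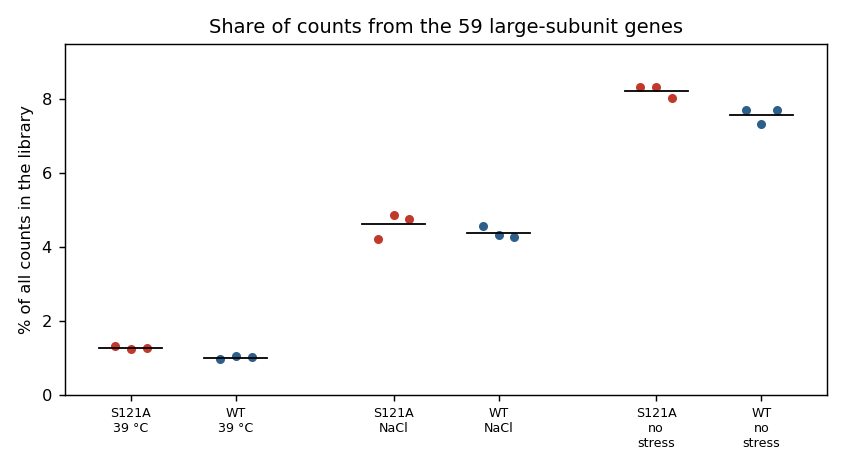
Share of each library's counts from the 59 large-subunit genes (vertical axis, %), with 1 point per library and a line at the mean of 3, S121A in red and WT in blue. The 6 libraries at 39 °C sit between 0.9629% and 1.315%, and the 6 without stress between 7.319% and 8.338%.

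Levels per kb of coding length, the scale on which genes can be set side by side, spread 179.1-fold between members in unstressed S121A and 189.4-fold in unstressed WT. RPL30 (YGL030W), whose protein restrains the splicing of its own transcript, was highest, with 7938 ± 467.2 CPM per kb in S121A and 8682 ± 520.2 in WT (SD, n = 3). RPL2B had 4731 CPM per kb in S121A and 5586 in WT, and RPL16B had 4486 in S121A and 5227 in WT. At the other end RPL15B had 44.3 ± 2.20 CPM per kb in S121A and 45.8 ± 1.49 in WT. RPL22B, RPL7B and RPL36A were next lowest, at 290.9, 434.6 and 546.2 CPM per kb in S121A and 275.3, 409.8 and 507.2 in WT. RPL15B, RPL22B and RPL7B are B copies whose A partner supplies most of the message, and RPL36A is listed here without its partner.

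Heat lowered 58 of the 59 genes in each genotype, and RPL15B was called higher in each. Over all genes tested, 80% were called either way in S121A, 39.7% lower and 40.3% higher, and 79.9% in WT, 39.3% lower and 40.6% higher. The median log2 fold change of the members was -2.26 in S121A and -2.63 in WT, beside medians over all genes of -0.01 in S121A and 0.02 in WT. On the linear scale the median falls were 4.78-fold in S121A and 6.185-fold in WT. Falls of more than 8-fold were seen in 6 genes in S121A and 20 in WT. For the same 58 genes every stressed library lay below every unstressed library of its genotype, where 40.5% of all genes tested did so in S121A and 40.5% in WT.

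RPL22B (YFL034C-A, chrVI:64243-64932, minus strand), the minor copy of a pair whose protein restrains the splicing of the RPL22B transcript, fell most in heat. It had 6.803, 7.277 and 4.534 CPM in heated S121A and 3.572, 3.521 and 3.302 CPM in heated WT, against 107.1, 115.5 and 99.49 CPM in unstressed S121A and 105.9, 95.7 and 103.1 CPM in unstressed WT. Heated libraries were far below unstressed ones, and every heated S121A library was above every heated WT library. The log2 fold changes were -4.12 ± 0.12 in S121A and -4.87 ± 0.13 in WT (SE; adjusted p = 2.8e-17 and 3.23e-18, edgeR).

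RPL27B and RPL13A were next, with log2 fold changes of -3.70 and -3.48 in S121A and -4.42 and -4.38 in WT. RPL13A (YDL082W, chrIV:308424-309388, plus strand) had 47.96, 43.99 and 53.92 CPM in heated S121A and 25.54, 26.96 and 27.89 CPM in heated WT, against 560.8, 532.9 and 537.4 CPM in unstressed S121A and 577.8, 549.9 and 547.7 CPM in unstressed WT. Its heated S121A libraries all lay above its heated WT libraries, and its unstressed groups were close. RPL9A, with -3.23, completed the 4 lowest in S121A, and RPL26B, with -3.81, those in WT.

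Among the smallest falls in heat were log2 changes of -1.43 for RPL26A and -1.55 for RPL3 in S121A, and -1.52 for RPL35A, -1.75 for RPL26A and -1.76 for RPL34B in WT. Rpl26, Rpl35 and Rpl31 surround the opening through which the nascent chain leaves the ribosome, and their genes did not move as a block. RPL26A and RPL26B changed by -1.43 and -3.20 in S121A and by -1.75 and -3.81 in WT. RPL31A and RPL31B changed by -1.96 and -2.87 in S121A and by -1.76 and -3.31 in WT. RPL25, whose protein docks the signal recognition particle at the same opening, changed by -2.26 in S121A and -2.21 in WT.

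Rpl5 and Rpl11 enter the ribosome together, bound to the small ribosomal RNA of the large subunit. RPL5 had log2 heat changes of -1.81 in S121A and -2.39 in WT, and RPL11A and RPL11B had -2.89 and -2.71 in S121A and -3.11 and -2.99 in WT. Proteins around the peptidyl transferase centre include Rpl3, Rpl2, Rpl4 and Rpl10. RPL3 changed by -1.55 in S121A and -2.10 in WT, RPL2B by -1.74 and RPL10 by -1.88 in S121A, and RPL2B by -2.37 and RPL10 by -2.34 in WT. In WT, RPL2A, RPL4A and RPL4B changed by -2.82, -3.03 and -3.15, further than the members' median of -2.63. In S121A these 3 genes fell less than the members' median of -2.26. RPL12A and RPL12B, for the protein at the base of the stalk that receives translation factors, changed by -2.71 and -2.27 in S121A and -3.56 and -2.63 in WT. All of these passed the test in both genotypes.

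NaCl lowered 55 of the 59 genes in S121A and 57 in WT, and again RPL15B was called higher in each. Over all genes tested, 71% were called either way in S121A, 35.3% lower and 35.8% higher, and 73.6% in WT, 37.2% lower and 36.3% higher. The falls were smaller than in heat, with members' medians of -0.65 in S121A and -0.72 in WT, or 1.572-fold in S121A and 1.649-fold in WT. The medians over all genes were -0.01 in both. Only 12 members in S121A and 15 in WT fell by more than 2-fold. RPL10, whose protein is among the last to join the maturing subunit, was not called in either genotype, with changes of -0.19 (adjusted p = 0.096, edgeR) in S121A and -0.08 (adjusted p = 0.466) in WT. RPL4A and RPL4B were also not called in S121A, at -0.20 and -0.28. Every library in NaCl lay below every unstressed one for 57 members in S121A and 56 in WT, beside 38.2% of all genes in S121A and 39.7% in WT.

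RPL22B was again lowest in NaCl, at 19.9, 21.42 and 20.26 CPM in S121A and 14.77, 12.97 and 13.63 CPM in WT, log2 changes of -2.39 ± 0.11 in S121A and -2.88 ± 0.11 in WT. The S121A and WT libraries in NaCl did not overlap. The next largest falls in S121A were -1.70 for RPL33B, -1.67 for RPL16A and -1.63 for RPL27B. In WT they were -2.04 for RPL33B, -1.96 for RPL27B and -1.91 for RPL31B. The smallest called falls were -0.23 for RPL16B in S121A (adjusted p = 0.0259, edgeR) and, in WT, -0.32 for RPL33A and -0.35 for RPL30. The RPL16B call was lost, at adjusted p up to 0.12, when any of 4 libraries was left out: S121A replicates 1 and 3 without stress and S121A replicates 1 and 3 in NaCl.

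RPL15B (YMR121C, chrXIII:509734-510348, minus strand), which encodes the minor copy of a protein deep in the subunit core, was the only member with higher message in stress. It had 37.18, 31.74 and 46.74 CPM in heated S121A and 42.83, 45.18 and 48.78 CPM in heated WT. In NaCl it had 39.82, 46.67 and 49.05 CPM in S121A and 41.05, 48.79 and 50.06 CPM in WT. Without stress it had 27.99, 28.08 and 25.69 CPM in S121A and 29.12, 27.29 and 28.13 CPM in WT. All 12 stressed libraries were above all 6 unstressed ones, and the genotypes overlapped in each condition. Such a separation upward was seen for 40.6% of all genes tested in heated S121A, 40.7% in heated WT, 39.2% in NaCl in S121A and 37.9% in NaCl in WT. Its log2 changes were 0.50 ± 0.11 for heat in S121A, 0.69 ± 0.11 for heat in WT, and 0.73 ± 0.11 for NaCl in both. With libraries scaled by their totals alone, the heat change in S121A was -0.12 (adjusted p = 0.329), so its direction there depends on the scaling.

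**Figure D2:**
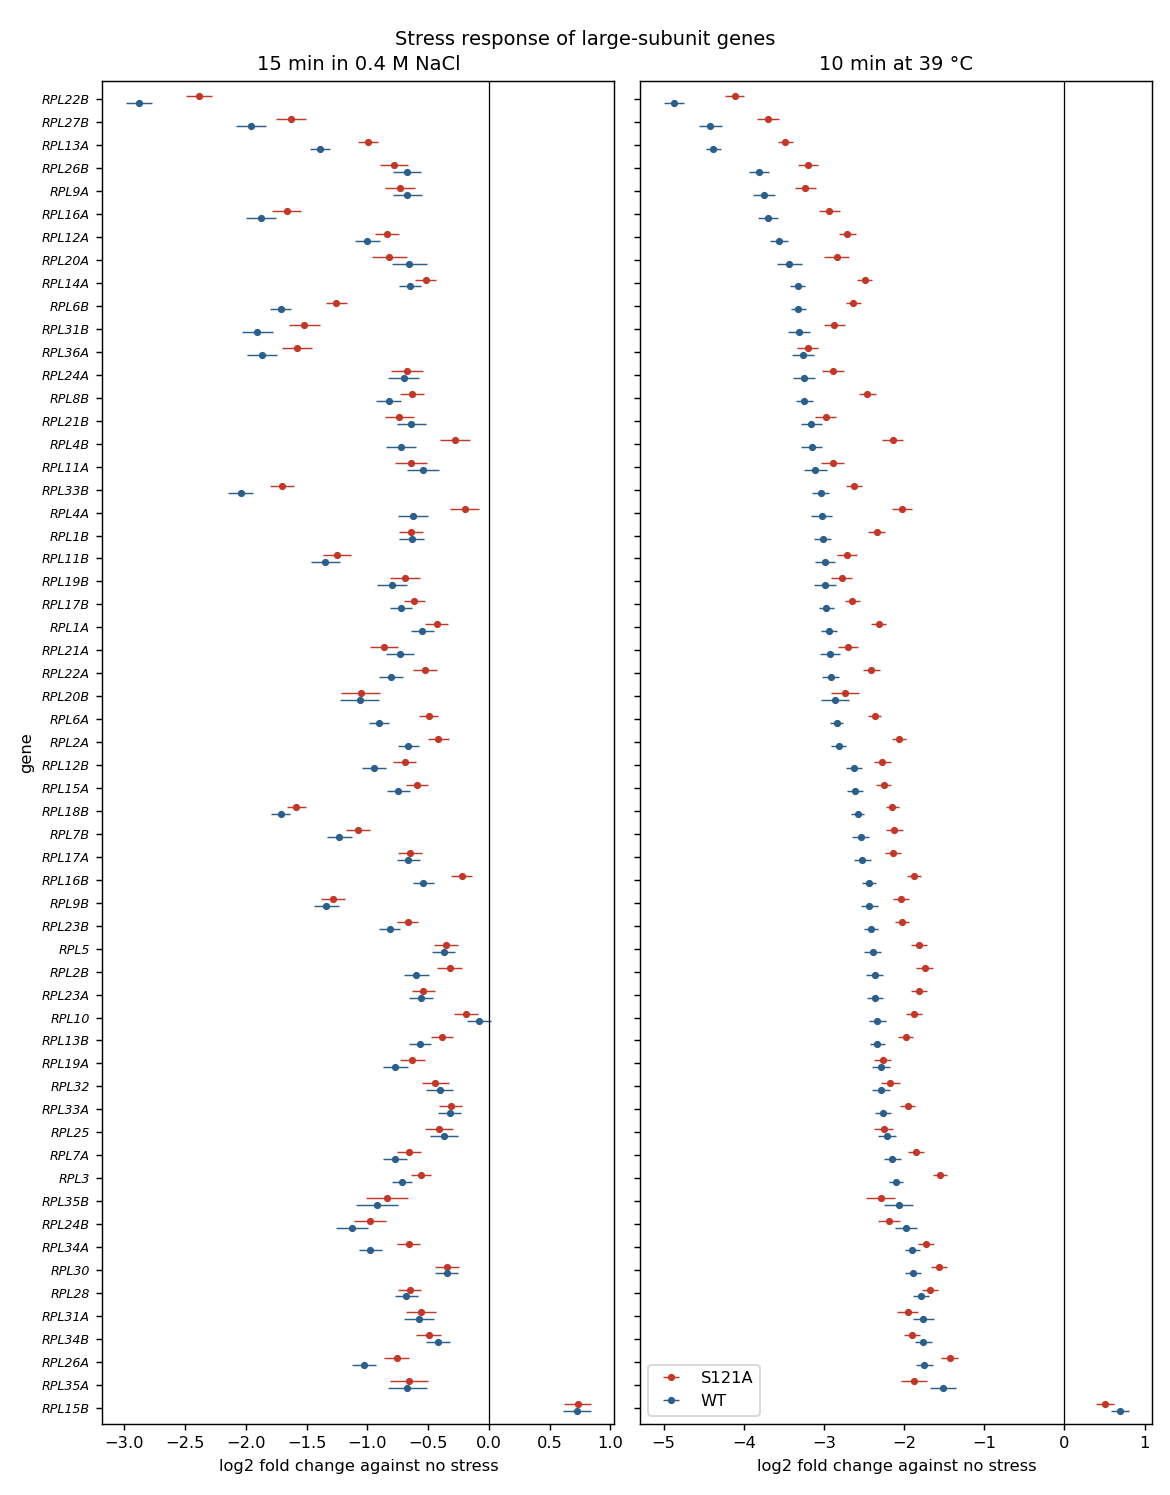
Log2 fold change against no stress (horizontal axes) of 58 of the 59 genes in NaCl (left panel) and at 39 °C (right panel), with SE bars, S121A in red and WT in blue, ordered by the WT heat change. RPL15B alone lies right of 0 in both panels, RPL22B is lowest at -4.12 in S121A and -4.87 in WT at 39 °C, and RPL10 sits closest to 0 in NaCl in WT.

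Set directly against NaCl, heat gave lower levels for 58 members in each genotype, with RPL15B not called in either. Over all genes, 64.2% were called either way in S121A, 33.6% lower in heat, and 66.1% in WT, 33.2% lower. The members' median was -1.64 in S121A and -1.84 in WT, beside medians over all genes of -0.03 in S121A and 0.00 in WT. RPL9A, RPL13A, RPL26B and RPL11A differed most in S121A, at -2.50, -2.49, -2.42 and -2.25. RPL26B, RPL9A, RPL13A and RPL20A did so in WT, at -3.14, -3.08, -2.99 and -2.78. The smallest called differences in S121A were -0.56 for RPL18B, -0.67 for RPL26A and -0.76 for RPL9B, and in WT -0.72 for RPL26A, -0.85 for RPL35A and -0.86 for RPL24B. The heated libraries were all below those in NaCl for 58 members in each genotype, beside 35.1% of all genes in S121A and 33.1% in WT.

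The A and B copies of a protein often answered stress to different extents. For each pair the log2 ratio of A over B counts was taken within each library, which needs no scaling between libraries, and tested by exact two-sided permutation of the labels within strata, adjusted over 72 tests. Heat shifted the ratio in 22 of 24 pairs, 13 toward A and 9 toward B, by a median of 0.55 in either direction. NaCl shifted it in 20 pairs, 14 toward A and 6 toward B, by a median of 0.36. The shift exceeded 1 on the log2 scale in 7 pairs in heat and 6 in NaCl. The smallest p that the 400 arrangements allow is 0.005, and 20 pairs in heat and 17 in NaCl reached it (adjusted p = 0.00783). The pairs named below for a stress were among these, except where another p is given.

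RPL15 moved most in heat, by -3.03 on the log2 scale over both genotypes, and by -1.40 in NaCl. The A copy gave 90.1% ± 0.83 of the pair's counts in heated S121A and 85.4% ± 0.30 in heated WT, 96.1% ± 0.18 and 95.4% ± 0.41 in NaCl for S121A and WT, and 98.4% ± 0.02 and 98.3% ± 0.02 without stress for S121A and WT (SD, n = 3). RPL15A fell while RPL15B did not. RPL15A (YLR029C) had 349.2, 312.2 and 385 CPM in heated S121A and 247.2, 271.8 and 281.1 CPM in heated WT, against 1724, 1690 and 1588 CPM in unstressed S121A and 1681, 1612 and 1618 CPM in unstressed WT. Heated and unstressed libraries of RPL15A did not overlap, and heated S121A lay above heated WT in every library.

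In RPL26 the majority copy in heat was not that without stress, in both genotypes. RPL26A gave 64.2% ± 1.93 of the pair's counts in heated S121A and 68.4% ± 0.88 in heated WT, against 34.5% ± 1.04 in unstressed S121A and 34.2% ± 1.05 in unstressed WT. RPL26A (YLR344W) had 204.9, 190.1 and 225.1 CPM in heated S121A and 177.7, 164.2 and 156.2 CPM in heated WT, and RPL26B (YGR034W) had 124.3, 106 and 115.5 CPM in heated S121A and 78.61, 78.68 and 72.9 CPM in heated WT. The A copy was thus above the B copy in every heated library, and below it in the unstressed ones, where RPL26B had 1105, 1042 and 1032 CPM in S121A and 1119, 956.2 and 1151 CPM in WT. NaCl did not shift RPL26 over both genotypes by the test (-0.17, adjusted p = 0.09, exact permutation test), with a change of 0.02 in S121A and -0.35 in WT. RPL26A gave 34.8% ± 0.54 of the pair's counts in S121A in NaCl and 28.9% ± 0.80 in WT in NaCl (SD, n = 3). In WT each library in NaCl had a lower ratio than each unstressed one, and in S121A they overlapped; the shift within 1 genotype, and its difference between genotypes, were not tested.

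**Figure D3:**
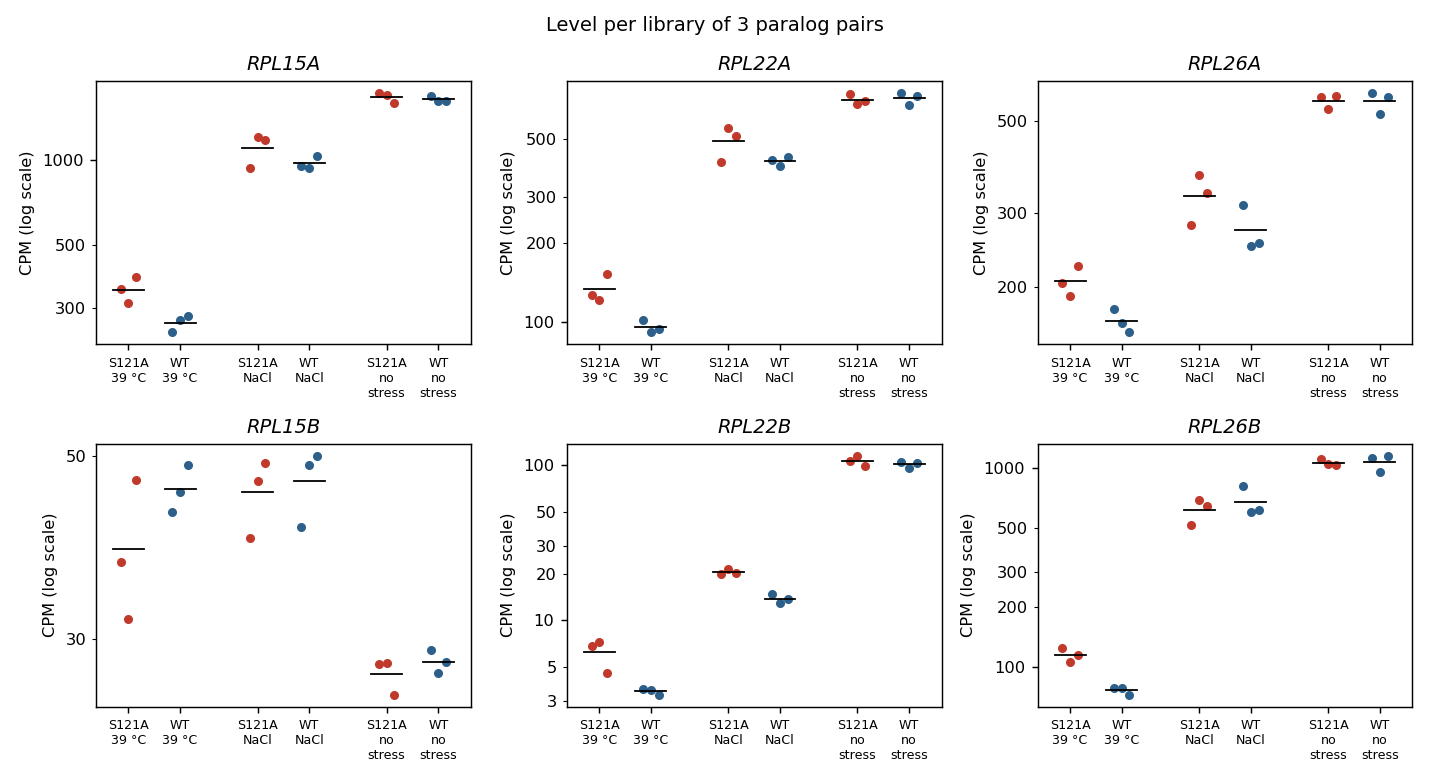
CPM per library (vertical axes, log scale) of RPL15, RPL22 and RPL26 A copies (top) and B copies (bottom), with 1 point per library and a line at the mean of 3, S121A in red and WT in blue. RPL15B alone is higher in stress than without it, RPL22B drops furthest, and at 39 °C RPL26A (156.2 to 225.1 CPM) exceeds RPL26B (72.9 to 124.3 CPM).

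In 5 pairs the ratio shifted one way in NaCl and the other way in heat, each past the test. RPL9, whose protein lies near the site where translation factors bind, moved by 0.61 toward A in NaCl and -1.26 in heat. RPL9A gave 46.7% ± 0.84 of the pair's counts in heated S121A and 39.7% ± 2.87 in heated WT, 74.5% ± 1.44 in S121A in NaCl and 72.5% ± 1.18 in WT in NaCl, and 66.7% ± 0.77 in unstressed S121A and 62.2% ± 1.46 in unstressed WT. RPL24 moved by 0.36 in NaCl and -0.98 in heat, RPL11 by 0.71 and -0.15, and RPL20 by 0.31 and -0.33 (adjusted p = 0.0282 for RPL20 in heat, exact permutation test). The RPL20 heat shift was -0.09 in S121A, where heated and unstressed libraries overlapped, and -0.56 in WT. RPL21 moved the other way round, by -0.11 in NaCl and 0.26 in heat (adjusted p = 0.0445 in NaCl, exact permutation test). Whether these NaCl and heat shifts differ from each other was not tested directly.

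Other large shifts kept their direction. RPL22 moved toward A by 1.96 in NaCl and 1.84 in heat, and RPL33 by 1.55 and 0.72. RPL31 moved toward A by 1.15 and 1.23. RPL16 moved toward B by -1.40 in NaCl and -1.16 in heat, and RPL13 by -0.72 and -1.78. In RPL22, RPL33 and RPL31 the copy that gained already held the larger count share without stress, at 86.8%, 75.9% and 64.8% in S121A and 87.6%, 77.2% and 64.8% in WT. In RPL16 and RPL13 the B copy gained, and A gave 29.2% and 33.8% in unstressed S121A and 26.2% and 35.04% in unstressed WT. RPL2A also gave the minority of its pair's counts, 29.1% ± 0.24 in unstressed S121A and 26.6% ± 0.70 in unstressed WT.

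**Figure D4:**
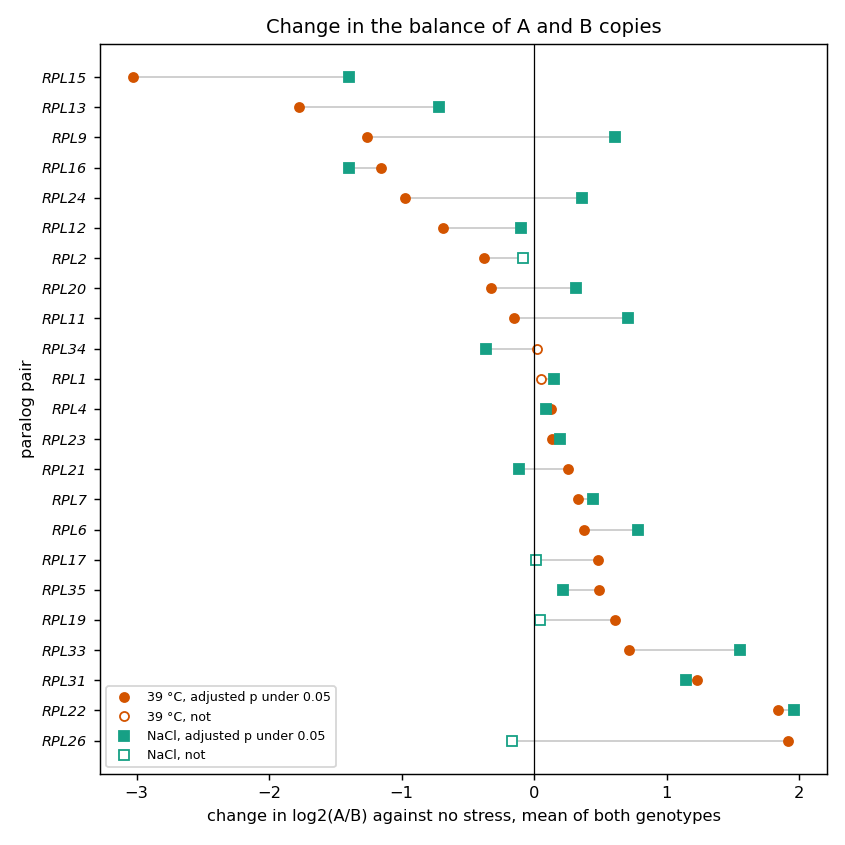
Change against no stress in the log2 ratio of A over B counts (horizontal axis, mean of both genotypes) for 23 of the 24 pairs at 39 °C (circles) and in NaCl (squares); filled symbols have an adjusted p under 0.05 by the exact permutation test. RPL15 lies furthest left at -3.03 in heat, RPL26 furthest right at 1.91 in heat, and RPL9, RPL24, RPL11, RPL20 and RPL21 have filled symbols on both sides of 0.

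The 5 pairs whose copies share most 50-base windows had a median absolute heat shift of 0.15, and the other 19 had 0.69. Spearman's rho between the share of identical 50-base windows and the size of the heat shift was -0.498 across the 24 pairs. The value is a description over pairs measured in the same libraries. How much reads assigned to the wrong copy lower the shifts of close pairs was not tested.

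Relative to all counts, large-subunit message was higher in the S121A libraries than in the WT libraries in heat. That share was also higher without stress, at 8.025% to 8.338% in S121A and 7.319% to 7.721% in WT. The calls that follow use TMM scaling. Of the 59 members, 45 were called higher and 0 lower in heated S121A, where 33.7% of all genes tested were called either way, 19.5% higher and 14.2% lower. The members' median log2 difference was 0.41, with values from -0.24 (RPL15B) to 0.86, and the median over all genes was -0.00. In 46 members every heated S121A library lay above every heated WT library, which was so for 20.8% of all genes. Leaving out each library of these groups in turn gave 36 to 46 calls.

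RPL13A, RPL14A, RPL22B and RPL12A differed most in heat, at 0.86 ± 0.09, 0.85 ± 0.09, 0.84 ± 0.13 and 0.82 ± 0.10 (SE; adjusted p = 3.08e-07, 3.89e-07, 6.2e-05 and 3.12e-06, edgeR). RPL14A (YKL006W) had 215.7, 204 and 227 CPM in heated S121A and 132.5, 115.2 and 110.6 CPM in heated WT. RPL12A (YEL054C) had 160, 165.4 and 149.5 CPM in heated S121A and 97.21, 88.38 and 83.16 CPM in heated WT. In both genes the lowest S121A library was well above the highest WT library. RPL27B, RPL4A, RPL16A and RPL8B followed at 0.79, 0.77, 0.76 and 0.74. The 14 members that were not called included RPL15B, RPL25, RPL28, RPL30, RPL31A, RPL35A and RPL35B, with differences of -0.24, 0.04, 0.19, 0.20, 0.02, -0.13 and 0.00.

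RPL35A was among the members in which 1 library stood apart, with 107.6, 93.53 and 118.1 CPM in heated S121A and 78.81, 132.5 and 137.5 CPM in heated WT. WT replicate 1 was the lowest of the 6 and the other two WT libraries the highest. The same WT library was the lowest of its group for RPL31A, RPL31B, RPL34B and RPL36A. The sum of the 4 alpha-specific genes, normally expressed in MATalpha cells, was 36.4 to 65.5 counts per M in heated S121A. It was 38.2 to 42.0 in heated WT, and 4 of 4 were called higher in heated S121A. Their median log2 difference between S121A and WT was 0.68 in heat, 0.72 in NaCl and 0.72 without stress. The response to heat was called different between genotypes for 0 of these 4 genes. Of the 4 a-specific genes, 3 were called higher in heated S121A and 0 lower, with a median of 0.25. Without stress all 4 were called lower, with a median of -0.36. The response to heat was called different between genotypes for all 4 a-specific genes, with a weaker fall in S121A and a median difference of 0.58. The part of either gene list in the members' difference was not tested.

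In NaCl, 11 members were called higher in S121A and 0 lower, where 23.8% of all genes were called either way, 14.6% higher and 9.19% lower. The members' median was 0.15 and the median over all genes 0.00. This share of members called is close to the background. RPL31B and RPL22B had the largest differences, 0.60 ± 0.13 and 0.57 ± 0.11 (SE; adjusted p = 0.00149 and 0.000599, edgeR). RPL31B (YLR406C) had 108.9, 139.8 and 143.3 CPM in S121A and 100.6, 78.76 and 79.42 CPM in WT in NaCl, with all S121A libraries above all WT ones. RPL34A, RPL27B, RPL36A, RPL33B, RPL6A and RPL13A followed at 0.41, 0.40, 0.39, 0.39, 0.38 and 0.35. The RPL27B and RPL36A calls were each lost, at adjusted p up to 0.136, when 1 of 4 libraries was left out (WT replicate 3, S121A replicates 2 and 3, and WT replicate 2 for RPL27B or 1 for RPL36A).
The number called was 6 to 7 without WT replicate 2 or 3 or S121A replicate 2 or 3, and 22 without S121A replicate 1, the S121A library with the lowest share of counts from these genes. In 8 members the S121A libraries all lay above the WT libraries and in 1 all below, beside 21.9% above and 16.8% below over all genes.

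Without stress the genotypes were close. RPL3 (YOR063W, chrXV:444686-445849, plus strand), whose protein reaches toward the peptidyl transferase centre, was the only member called, at 4779, 4322 and 4048 CPM in S121A and 5390, 5209 and 5024 CPM in WT. All S121A libraries were below all WT libraries, with a log2 difference of -0.25 ± 0.08 (SE; adjusted p = 0.0349, edgeR). Over all genes 23.1% were called either way, 9.05% higher and 14.1% lower. The members' median was 0.03, with a range of -0.30 to 0.27, and the median over all genes was -0.02. In 4 members the S121A libraries all lay above WT and in 6 all below, beside 20% above and 29.9% below over all genes. The RPL3 call was lost, at adjusted p from 0.0514 to 0.158, without any of the 3 WT libraries or without S121A replicate 2 or 3. With library totals alone 8 members were called, all higher in S121A, and in a fit of these 2 groups alone 15 were called higher and 4 lower, so the number and the direction of the calls depend on these choices.

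**Figure D5:**
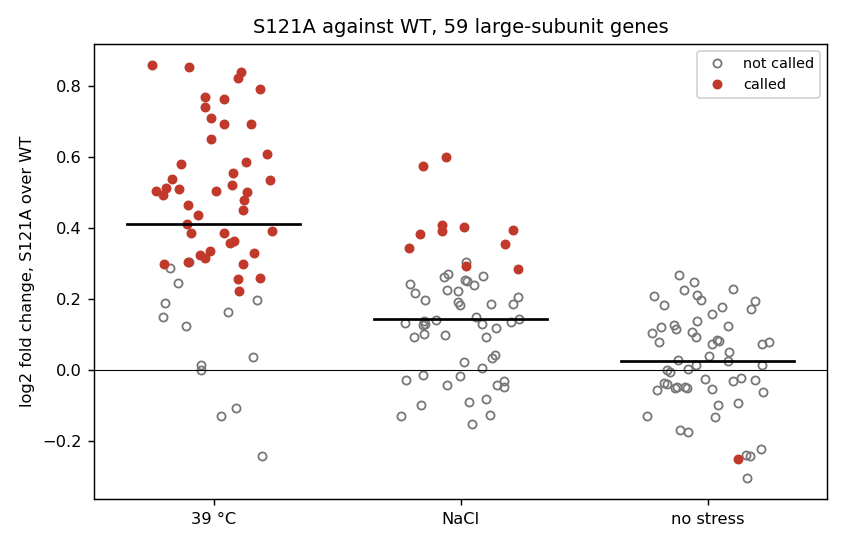
Log2 fold change of S121A over WT (vertical axis) for the 59 genes at 39 °C, in NaCl and without stress; filled points have an adjusted p under 0.05 (edgeR) and lines mark the medians. The median is 0.41 at 39 °C, 0.15 in NaCl and 0.03 without stress, and the filled points number 45, 11 and 1.

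The response difference subtracts the WT response to a stress from the S121A response, so a positive value is a weaker fall in S121A. For heat it was called for 31 members, all positive, where 22.6% of all genes were called, 15.5% positive and 7.08% negative. The members' median was 0.39 and that of all genes 0.05. RPL4B (YDR012W) and RPL4A (YBR031W), whose protein sends a long loop into the core of the subunit, had the largest values, 1.01 ± 0.18 and 1.01 ± 0.17 (SE; adjusted p = 0.000352 and 0.000258, edgeR). RPL4A had 602, 596.1 and 765.9 CPM in heated S121A and 421.7, 341.2 and 389.4 CPM in heated WT, against 2841, 2540 and 2603 CPM in unstressed S121A and 3342, 3094 and 2981 CPM in unstressed WT. S121A was above WT in heat and below it without stress in every library, so both conditions entered the value. As RPL4A and RPL4B share most of their sequence, they are not independent measurements.

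RPL13A, RPL12A, RPL14A, RPL8B, RPL16A and RPL22B followed at 0.90, 0.85, 0.84, 0.79, 0.77 and 0.76. For NaCl the response difference was called for 4 members, all positive, where 8.35% of all genes were called, 6.82% positive and 1.53% negative, so the members' share was close to the background. These were RPL22B at 0.49, RPL6B at 0.46, RPL6A at 0.41 and RPL13A at 0.39 (adjusted p = 0.0433, 0.0211, 0.0252 and 0.0439, edgeR). The members' median was 0.12 and that of all genes 0.04. Leaving out 1 library at a time gave 0 to 5 calls, and none of the 4 genes stayed called under every alternative tried.

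The balance of A and B copies also differed between genotypes, by less than it did between conditions. Over the 3 conditions, 15 of 24 pairs had an adjusted p under 0.05, 7 with more A and 8 with more B in S121A, with a median absolute difference of 0.12 on the log2 scale and 0 pairs over 1. The smallest p of the 8000 arrangements is 0.00025. RPL31 differed most, at -0.34 (adjusted p = 0.00783, exact permutation test). Its A copy gave 77.6% ± 1.23 of the counts in heated S121A and 84.4% ± 0.22 in heated WT, 78.1% ± 0.29 in S121A in NaCl and 82.3% ± 2.33 in WT in NaCl, and 64.8% ± 0.15 in unstressed S121A and 64.8% ± 0.17 in unstressed WT. The genotypes differed in the stressed groups and overlapped without stress. RPL15 followed at 0.31 (adjusted p = 0.0045), RPL9 at 0.28 (adjusted p = 0.00783), RPL22 at -0.26 (adjusted p = 0.0445) and RPL16 at 0.26 (adjusted p = 0.0158), all by the exact permutation test. The RPL22 call was lost without any of 12 of the 18 libraries, at adjusted p up to 0.118.

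Members were also set apart by structure, for description only. Genes with an intron had a median log2 heat change of -2.26 in S121A and -2.56 in WT, and those without one -2.26 in S121A and -2.94 in WT. A copies had -2.26 in S121A and -2.83 in WT, and B copies -2.28 in S121A and -2.75 in WT. The 11 genes without a partner among the 59 members had -2.17 in S121A and -2.34 in WT. They are not all single-copy genes, since RPL36A has a partner outside the list. Across the 59 members, the level per kb in unstressed WT and the log2 change in NaCl had a Spearman's rho of 0.622 in S121A and 0.587 in WT, so members with more message tended to fall less. Level and change come from the same unstressed libraries in WT. For heat the rho was 0.342 in S121A and 0.125 in WT. The S121A minus WT difference without stress had a rho of -0.456 with coding length over the 59 members and -0.325 over the 5860 genes with a known length.

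The strict Rap1 motif, searched on both strands, occurred within 500 bases before the start codon of 8 of 59 members (13.6%), beside 56 of 5992 protein-coding genes (0.935%). From 250 bases before to 50 after the start it occurred in 2 of 59 (3.39%) and in 29 of 5993 (0.484%). The relaxed form, which every strict match contains, occurred within 500 bases of 22 members (37.3%) and of 360 of 5992 genes (6.01%), between 163 and 452 bases before the start codon in the members. Members with a relaxed match had a median heat change of -2.26 in S121A and -2.40 in WT, and the 37 without had -2.26 in S121A and -2.84 in WT. The relaxed form and the longer window were chosen after the strict search in the shorter window.

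The small-subunit genes, 53 in number, moved with the large-subunit genes. Heat lowered 53 of 53 in each genotype, with medians of -2.15 in S121A and -2.40 in WT, and NaCl lowered 49 in S121A and 52 in WT. Of all genes tested, heat lowered 39.7% in S121A and 39.3% in WT, and NaCl 35.3% in S121A and 37.2% in WT. In heated S121A against heated WT, 28 of the 53 were called higher and 0 lower, with a median of 0.31. The shares of all genes were 19.5% higher and 14.2% lower. Another 17 large-subunit genes, from RPL36B to RPL43B and those of the stalk, had smaller median falls in heat. These were -1.43 in S121A, with 16 genes called lower, and -1.85 in WT, with 15. Of the 17, 7 were called higher and 0 lower in heated S121A against heated WT, with a median of 0.27. The 33 genes of the mitochondrial large subunit, whose proteins work in a separate ribosome, had median heat changes of 0.06 in S121A and 0.08 in WT.

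Each of 5 genes for dedicated chaperones, which escort a new large-subunit protein to its assembly site, fell in heat and in NaCl in both genotypes. Each was called higher in S121A than in WT in both stresses. Of all genes, 39.7% in S121A and 39.3% in WT were called lower in heat, and 35.3% and 37.2% in NaCl. Those called higher in S121A than in WT were 19.5% in heat and 14.6% in NaCl. SYO1, which carries Rpl5 and Rpl11, averaged 2.266 CPM in heated S121A and 0.502 CPM in heated WT, against 44.66 CPM in unstressed S121A and 41.46 CPM in unstressed WT. ACL4, the escort of Rpl4, averaged 6.842 CPM in heated S121A and 2.739 CPM in heated WT. RRB1 for Rpl3, SQT1 for Rpl10 and BCP1 for Rpl23 had log2 differences between heated S121A and heated WT of 1.12, 0.33 and 1.24. The largest, SYO1, had 2.14 ± 0.25 (SE; adjusted p = 1.61e-06, edgeR).

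Of 9 regulators of ribosomal protein genes that were tested, 5 rose and 4 fell in heat in each genotype. Among all genes, 40.3% rose and 39.7% fell in S121A, and 40.6% rose and 39.3% fell in WT. IFH1, the coactivator, averaged 14.02 CPM in heated S121A and 12.29 CPM in heated WT, against 35.12 CPM in unstressed S121A and 35.24 CPM in unstressed WT. RAP1 and FHL1 fell in heat in WT by log2 changes of -0.56 and -0.98, and TOD6, a repressor of ribosome assembly genes, by -4.31. CRF1, a corepressor that competes with Ifh1 for Fhl1, changed by 2.17 in heated WT. The other regulators that rose in heated WT were STB3 at 1.24, DOT6 at 1.102, HMO1 at 0.72 and SFP1 at 0.34. Between genotypes in heat, TOD6 at 1.17 and CRF1 at 0.64 were called higher in S121A. RAP1, FHL1, IFH1 and SFP1 were not called, at -0.14, -0.05, 0.19 and -0.17. Without stress CRF1 was also called higher in S121A, at 1.11, and TOD6 was not called, at 0.13. The difference between genotypes in the heat response was called for TOD6, at 1.04, and not for CRF1, at -0.47.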

How the data were processed

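RNA counts of 18 libraries in 6 groups of 3 were used, with groups taken from the labels. The deposited values are raw counts per gene, which the authors did not normalize. The submitters' processing notes name DESeq2 1.10.1, TopHat2 2.0.1 and featureCounts 1.4.6-p5, and the builds sacCer3 and R64. Per the labels' protocols, RNA was extracted with hot phenol, poly(A)-selected and prepared with a stranded kit for paired reads of 50 bases. Treatment of strand and of multiply mapped reads is not stated in any source used here. The table's 0 unmapped columns needed no exclusion, and 6025 of 6746 features matched the R64 reference by systematic name.

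Counts were filtered with filterByExpr and scaled by TMM in edgeR 4.0.16 (R 4.3.3). A robust quasi-likelihood model with 1 mean per group was fitted to 6395 genes in all 18 libraries, and contrasts were adjusted by Benjamini-Hochberg over all genes, two-sided. On data simulated from these libraries the fit was checked for known changes. CPM, log2 fold changes and SE come from this fit. A count of 3, the least treated as detected, was 0.0566 to 0.0758 per M (mega) counts, a floor that covers counting error only. Pair ratios are log2 of counts plus a pseudocount of 0.5, tested by exact permutation within genotype or condition (SciPy 1.17.1) and adjusted over 24 pairs and 3 comparisons. Replicates of a group differed by more than counting noise, with chi-square per degree of freedom of 8.14 to 113.8.

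Alternatives were library totals, RLE size factors, DESeq2 1.42.0, no filter, a fit of only the groups compared, a replicate block, pseudocounts of 1 and 10, and each library left out. For each response the text names the 4 lowest and 4 highest members, for each genotype comparison or response difference up to 8 called members with the largest change, and for pairs the 5 largest called shifts and the 3 highest and 3 lowest ratios in unstressed WT. Other members were named afterwards, by role or to complete a description. The members and gene lists were chosen with earlier results of these data known. RPL members on chromosome VIII and 1 listed regulator were not analysed here. Values of 1 further member and its pair are not reported here singly.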

Additional observations from a re-analysis of the deposited data

Results flagged for a closer look

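Some results differ between the genotypes by a test of the difference in response itself, or by opposite signs. In NaCl the S121A response differed from the WT response in 4 members by edgeR's interaction contrast (adjusted p under 0.05), all with a weaker fall in S121A. On the log2 scale these were RPL22B at 0.49, RPL6B at 0.46, RPL6A at 0.41 and RPL13A at 0.39. Of all genes, 8.35% were called for this contrast, 6.82% positive, so the members' share was close to the background. None of the 4 stayed called under every alternative tried. At 39 °C the responses differed in 31 members, again all with a weaker fall in S121A, where 22.6% of all genes were called, 15.5% positive. The 8 largest were RPL4B at 1.01, RPL4A at 1.01, RPL13A at 0.90, RPL12A at 0.85, RPL14A at 0.84, RPL8B at 0.79, RPL16A at 0.77 and RPL22B at 0.76.

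The A over B ratio of RPL34 moved in opposite directions at 39 °C, by 0.17 in S121A and by -0.14 in WT. The difference between these was not tested.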

How the results depend on the processing

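Heat, NaCl and heat against NaCl gave 54 to 59 called members under every alternative, and S121A against WT at 39 °C gave 36 to 47. With library totals alone, 8 members were called for S121A against WT without stress, 0 for the NaCl response difference and 18 for the heat response difference. Under that scaling the median change of all genes was -0.63 in heated S121A and -0.37 in heated WT against no stress, and that of the members was -2.87 in S121A and -3.02 in WT. A fit of only the groups compared called 19 members without stress, 7 in NaCl and 2 for the NaCl response difference. Leaving out 1 library called 0 to 1 members without stress, 6 to 22 for S121A against WT in NaCl, 0 to 5 for the NaCl response difference and 22 to 32 for the heat one, and 20 to 23 pairs in heat, 18 to 21 in NaCl and 12 to 16 between genotypes. RPL15B had a heat change of -0.12 in S121A with library totals alone. Its difference between heat and NaCl in WT, not called, was 0.0015, 0.0224 and 0.0066 without WT NaCl replicate 2, WT NaCl replicate 3 and WT heat replicate 1. The cause was not tested, except that fewer libraries enter a fit that leaves some out.

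Same-numbered libraries of different groups did not deviate together (correlations -0.58 to 0.63, median -0.01), so the numbers were not taken as pairs. With the replicate block the calls were 1, 11 and 44 for S121A against WT without stress, in NaCl and at 39 °C, 3 and 28 for the NaCl and heat response differences, and 22, 19 and 13 pairs for heat, NaCl and genotype.

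With 3 libraries a group, small differences between genotypes without stress were not resolved. Counts within close pairs depend on read assignment that could not be checked, and shares of counts say nothing of RNA per cell.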
